A study of Mus musculus with 6 samples.

Results

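Aminoacyl-tRNA synthetases are the enzymes that join each amino acid to its transfer RNA. Their genes were examined in satellite cells, which are muscle stem cells of the mouse, with and without the proteasome subunit Rpt3. The members were all genes on the array whose probe description contained the words tRNA synthetase and whose gene name contained "ars", in upper or lower case. This rule found 38 of the 32053 gene names on the array, with 48 of its 55681 probes. Names ending in 2 were taken as mitochondrial, which gave 18 genes, and the other 20 were taken as cytosolic. Both name classes have exceptions. Tarsl2 ends in 2 but encodes a cytosolic paralogue of threonyl-tRNA synthetase. Aarsd1 encodes a protein related to the editing domain of alanyl-tRNA synthetase and not a full synthetase, and Gars and Kars each encode both the cytosolic and the mitochondrial enzyme. Eprs, the gene of the joined glutamyl- and prolyl-tRNA synthetase, lies outside the rule because its name lacks the letters "ars".

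The knockout group was 3 C57BL6 mice whose satellite cells lack Rpt3, and the control group was 3 C57BL6 mice. The gene of Rpt3 is Psmc4, and the protein is one of the ATPases that unfold substrates for the proteasome. The labels limit the knockout to satellite cells and name neither the Cre driver, the deleted part of the gene, the age of the mice nor any treatment. The genotype of the controls is not described beyond that word. Cells were sorted from each mouse, 5 ng of total RNA was amplified, and each mouse gave 1 array with 1 colour (Cy3).

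As background, a synthetase first activates its amino acid with ATP and then transfers it to the end of the matching tRNA, and the charged tRNA is used by the ribosome. Mitochondria translate their own few messages, mostly with a separate set of nuclear-encoded synthetases. In mammals some cytosolic synthetases are held together with 3 scaffold proteins in a multi-synthetase complex. Several cytosolic synthetase genes are known targets of ATF4, a transcription factor that is made when the kinase GCN2 senses uncharged tRNA or when other stresses lead to phosphorylation of the initiation factor eIF2alpha.

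Values are log2 of the background-corrected signal minus the 75th percentile of the same array, so 0 is the level of a probe at that percentile, and a difference of 1 is a doubling. Differences are knockout minus control, and levels of different probes are not comparable. Tests were limited to probes with a signal well above background throughout the knockout arrays, throughout the control arrays, or both, and each gene was read from its brightest probe. Between 44.2% of probes, on knockout 3, and 57.9%, on knockout 1, were well above background. Knockout 1 and 2 lay in slide row 1 and the other 4 arrays in slide row 2, so values blocked by slide row compare knockout 3 alone with the controls. Psmc4 had levels of 2.004, 2.02 and 1.52 on knockout arrays 1, 2 and 3 and of 2.89, 2.58 and 2.84 on the control arrays. Every knockout array lay below every control array, with a difference of -0.92 (SE 0.23), which did not pass over all features (limma, adjusted p = 0.406, exact permutation p = 0.1, the smallest that 3 against 3 allow). Of 10 satellite cell markers, all 10 were above background on each control array and 7 to 9 on the knockout arrays. Myf5, a myogenic regulatory factor, was not well above background on any knockout array (difference -1.97). Calcr, another of these markers, was above background on every array, with a difference of -1.04 (SE 0.28, limma adjusted p = 0.431). The knockout arrays lay wholly below the control arrays for 2 of the 10 markers, Myf5 and Calcr, against 5.70% of all features. They lay wholly above for 0, against 4.89% of all features. Myf5 entered the test through the control arrays alone, where its probe is high, so its values are no support for a lower level. Over the 10 markers 6 had a higher and 4 a lower knockout mean (median 0.02), and Pax7, the defining factor of these cells, was above background on 2 of 3 knockout arrays with a difference of 0.17. Markers of other cells were present. Relative to their 6-array means, 6 macrophage markers lay on average at 0.96, 0.58 and -0.78 on knockout arrays 1, 2 and 3. On control arrays 1, 2 and 3 they lay at 0.56, -0.53 and -0.79. The 6 endothelial markers lay at 0.30, 0.80 and -0.64 in knockout and at 0.90, -0.42 and -0.94 in control cells. All 6 fibro-adipogenic markers were above background on every array, at a summed log2 level of 7.42 to 8.08. The 10 neutrophil markers lay on average 1.22 and 1.23 above their 6-array means on knockout 1 and 2 and at -1.17 on knockout 3, against -0.68 to -0.01 on the controls, with 3 to 10 of 10 above background in knockout and 6 to 9 in control cells. Their summed log2 level was 9.15 to 9.82 in knockout and 9.34 to 9.40 in control cells. That sum is set almost wholly by Csf3r, which alone read 9.12 to 9.81 and 9.34 to 9.40. Of the 5 neutrophil markers bright enough to be tested, 5 had a higher and 0 a lower knockout mean (median 0.74). The summed log2 level of 8 red blood cell genes was 2.58 to 3.35 in knockout and 0.98 to 2.12 in control cells. Of the 8, 3 to 4 were above background in knockout and 2 to 3 in control cells, and Klf1, Ahsp and Epb4.2 on no array. Among the 3 bright enough to be tested, 2 had a higher and 1 a lower knockout mean (median 1.88), and 0 passed the test. The 2 higher ones lay wholly above the control arrays, where 4.89% of all features did so. The part of these other cells in the results below was not tested. In sorted bulk cells, fewer cells of a type and less RNA per cell cannot be told apart.

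Most synthetase genes were measured in these cells. On each knockout array 27 to 30 of the 38 genes were above background, and on each control array 31 to 34. On all 6 arrays it was 25 genes, 15 cytosolic and 10 mitochondrial by name. Another 4 genes, Mars, Wars, Iars2 and Vars2, were above background on all control arrays and missed it on at least 1 knockout array, so they entered the test through the control group alone. That made 29 tested genes, 17 cytosolic and 12 mitochondrial. The 9 genes too dim to be tested included Dars, Vars and Yars among the cytosolic and Lars2, Mars2, Nars2, Rars2 and Wars2 among the mitochondrial ones.

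No synthetase gene passed the threshold of an adjusted p of 0.05 in either direction. Neither did any of the 19194 features tested (0% higher and 0% lower, limma), with 0.0666 as the smallest adjusted p. Of the 29 synthetase genes tested, 0 were higher with an unadjusted p under 0.05, against 2.82% of all features, and 1 was lower, Vars2, against 4.27% of all features. The knockout arrays lay wholly above the control arrays for 3 genes, Nars, Aars and Gars, where 4.89% of all features did so. They lay wholly below for 1 gene, Vars2, against 5.70% of all features. Vars2 was tested through the control arrays alone. Over probes above background on all 6 arrays, both lower counts were 0. A p that misses the threshold does not show that the levels were alike. The 95% interval of the difference lay within a doubling or halving (-1 to 1 on the log2 scale) for 16 of the 29 genes, 10 cytosolic and 6 mitochondrial, and it included 0 for 28. Standard errors ranged from 0.20 to 0.56, with a median of 0.28.

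**Figure D1:**
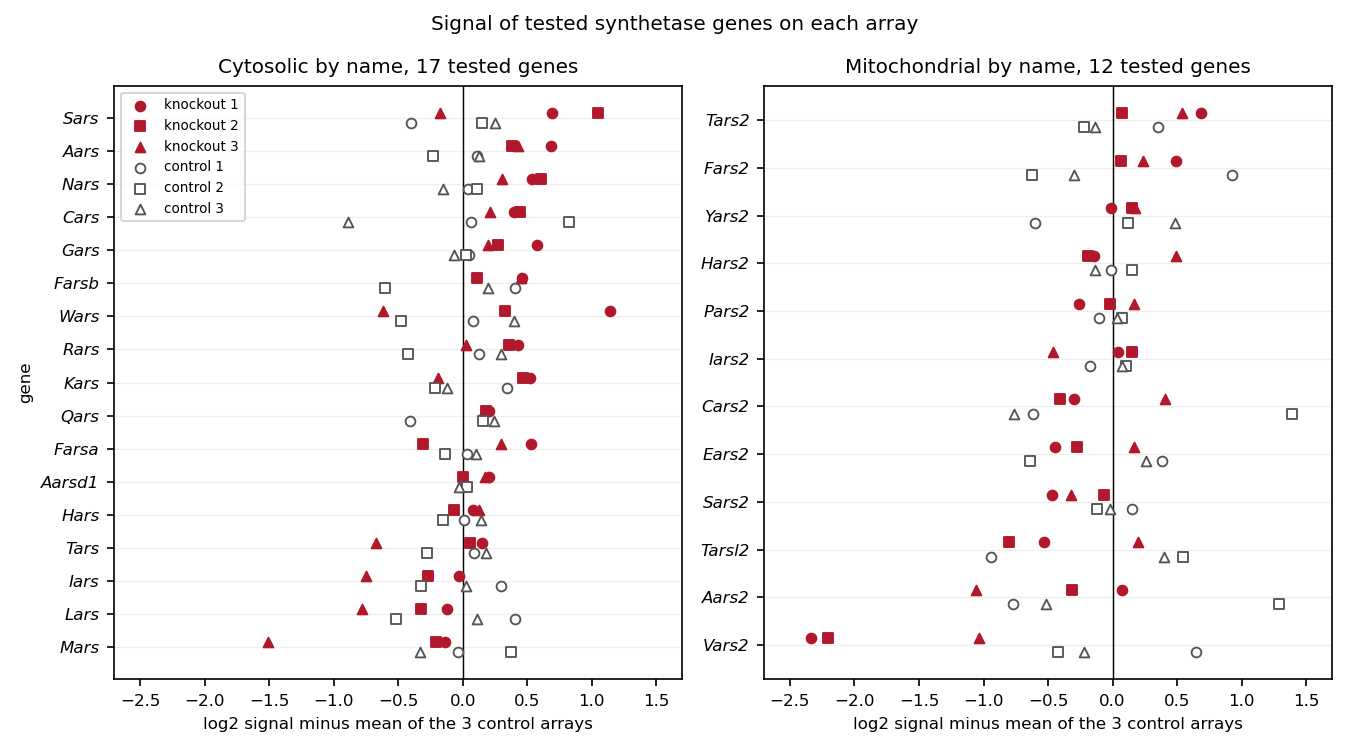
Log2 signal of the 29 tested synthetase genes on each array, drawn as the difference from the mean of the 3 control arrays (x axis, log2 units; one row per gene). Filled symbols are knockout and open symbols control arrays. All 3 knockout symbols lie right of the control symbols for Nars, Aars and Gars, and left of them for Vars2.

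The asparaginyl-, alanyl- and glycyl-tRNA synthetase genes were the ones with every knockout array above every control array. Nars, which encodes cytosolic asparaginyl-tRNA synthetase, had levels of 3.79, 3.86 and 3.55 on knockout arrays 1, 2 and 3 and of 3.29, 3.36 and 3.10 on control arrays 1, 2 and 3. The lowest knockout array was above the highest control array, and the difference was 0.48 (SE 0.21, 95% interval -0.0019 to 0.96, limma adjusted p = 0.705). Blocked by slide row it was 0.30. Aars, the alanyl-tRNA synthetase gene (probe at chr8:113579376-113579434, build mm9, transcript NM_146217), read 0.30, -0.0035 and 0.04 in knockout and -0.28, -0.62 and -0.27 in control cells. Here too the groups did not overlap, and control 2 was the lowest array. The difference was 0.50 (SE 0.22, 95% interval -0.01 to 1.004, adjusted p = 0.717), or 0.43 blocked by slide row. A second Aars probe was above background on no array. Gars, whose gene supplies glycyl-tRNA synthetase to both compartments (probe at chr6:55029377-55029436, mm9), had levels of 3.99, 3.69 and 3.61 in knockout and 3.46, 3.44 and 3.35 in control cells. Its groups were separate by a smaller gap, between knockout 3 and control 1, and the difference was 0.35 (SE 0.21, 95% interval -0.14 to 0.83, adjusted p = 0.876). Blocked by slide row it was 0.20. In the alternative with normexp background correction, Nars and Gars overlapped between the groups and Aars did not.

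Of the other cytosolic genes with higher knockout means, the groups overlapped in each. Sars, for seryl-tRNA synthetase, had the highest difference of all tested synthetase genes and read 1.15, 1.4995 and 0.27 in knockout and 0.05, 0.60 and 0.70 in control cells. Knockout 1 and 2 were above every control array, and knockout 3 was below control 2 and 3. The difference of 0.52 (SE 0.35, adjusted p = 0.925) therefore depended on the knockout arrays used: without knockout 3 it was 0.87, and blocked by slide row it was -0.18. No control array lay in slide row 1, so slide row and mouse cannot be told apart here. Farsb, for the beta subunit of the 2-part cytosolic phenylalanyl-tRNA synthetase, read -0.03, -0.37 and -0.03 in knockout and -0.08, -1.08 and -0.29 in control cells. Control 2 was its lowest array, and the difference was 0.34 (SE 0.30, adjusted p = 0.968). Without control 2 it was 0.04. Its partner Farsa, the alpha subunit, had a difference of 0.17 (SE 0.27) on its brightest probe and of 0.05 and 0.06 on its other probes. The remaining genes with higher means were Cars (0.35, SE 0.41), Wars (0.28, SE 0.45), Rars (0.27, SE 0.26), Kars (0.26, SE 0.28), Qars (0.18, SE 0.24), Aarsd1 (0.13, SE 0.20) and Hars (0.05, SE 0.20), which handle cysteine, tryptophan, arginine, lysine, glutamine, alanine editing and histidine. Wars was also measured by a dimmer probe with the opposite sign, -0.47 (SE 0.42).

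Lower knockout means were found for 4 tested cytosolic genes, and 3 of them, Mars, Lars and Iars, encode parts of the multi-synthetase complex. Mars, for methionyl-tRNA synthetase, read -1.02, -1.08 and -2.39 in knockout and -0.92, -0.51 and -1.21 in control cells. Knockout 3, where the probe was not well above background, stood below the rest, while knockout 1 and 2 lay among the controls. The difference was -0.62 (SE 0.40, adjusted p = 0.909), and without knockout 3 it was -0.17. Lars, for leucyl-tRNA synthetase, which also acts as a leucine sensor upstream of mTORC1, read -0.12, -0.32 and -0.78 in knockout and 0.41, -0.51 and 0.11 in control cells. The groups overlapped through control 2, and the difference was -0.41 (SE 0.31, adjusted p = 0.939). Iars, for isoleucyl-tRNA synthetase, read 1.72, 1.48 and 0.996 in knockout and 2.05, 1.42 and 1.77 in control cells. Knockout 3 was again the lowest array and the groups overlapped (difference -0.35, SE 0.28, adjusted p = 0.954). Tars, for threonyl-tRNA synthetase, read 0.20, 0.11 and -0.62 in knockout and 0.14, -0.22 and 0.24 in control cells. Its lower mean came from knockout 3, and the difference was -0.16 (SE 0.28, adjusted p = 0.984) with that array and 0.10 without it. Over the 3 complex genes and Tars, knockout 3 was the lowest of the 6 arrays each time.

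**Figure D2:**
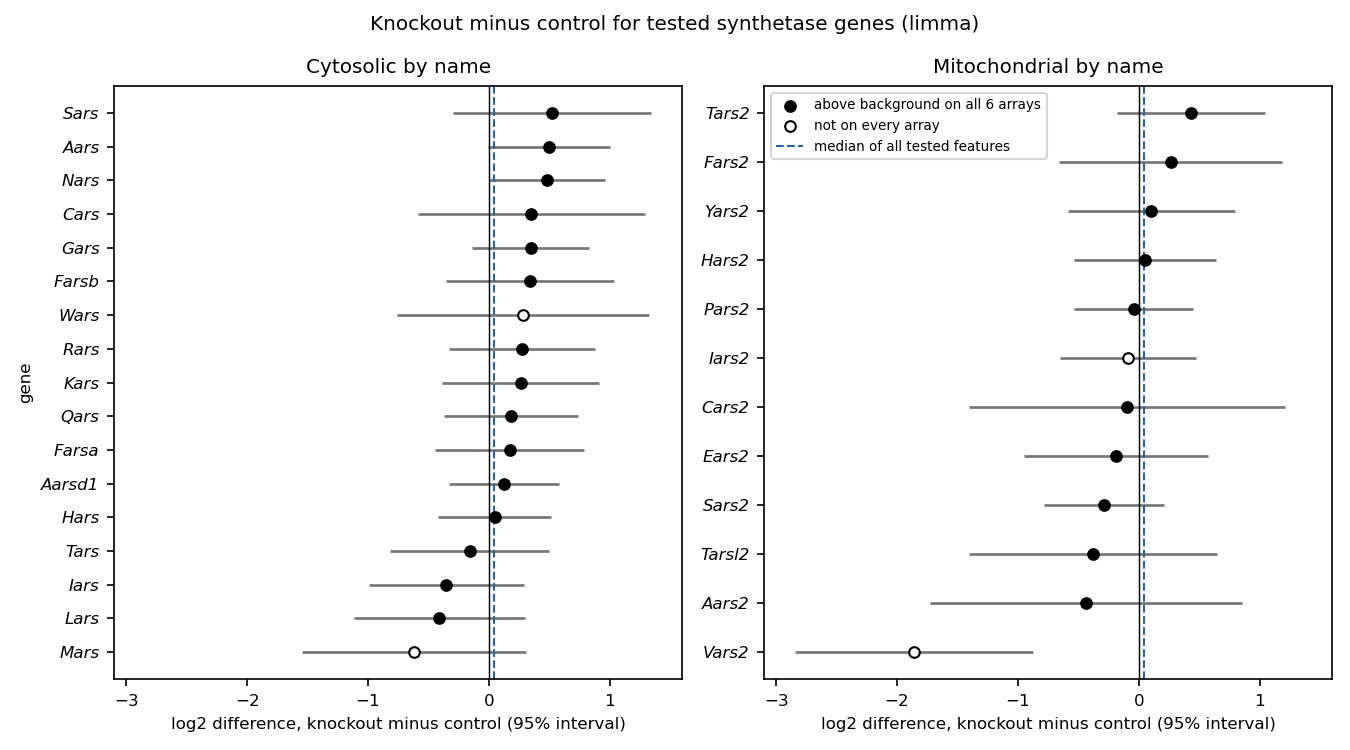
Knockout minus control log2 difference of each tested synthetase gene (point) with its 95% interval from limma (bar). Open points mark genes not above background on every array, and the dashed line is the median of all tested features, 0.04. The interval of 28 of 29 genes includes 0. The exception is Vars2, whose probe was not above background on any knockout array.

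Vars2, for mitochondrial valyl-tRNA synthetase, was the synthetase gene with the smallest p. Its brightest probe read -3.25, -3.12 and -1.95 in knockout and -0.27, -1.34 and -1.13 in control cells. It was well above background on all 3 control arrays and on 0 of 3 knockout arrays, so the knockout level was not measured above background. Every knockout array lay below every control array. For a rough floor, each knockout array was given the lowest signal of any probe above background there, or the probe's own where that is higher. With that floor the knockout mean lay 3.32-fold below the control mean. The floor is not the detection limit of this probe, so the fold is no strict bound. The fitted difference was -1.86 (SE 0.42, 95% interval -2.84 to -0.88, unadjusted p = 0.0025, limma adjusted p = 0.352). Vars2 entered the test through the control group, where this probe is high, and its knockout values were not above background. These figures are therefore no support for a lower level. Blocked by slide row the difference was -1.03. The array holds another probe for the same transcript, NM_175137, and it gave the opposite order. That probe read -2.25, -1.23 and -2.37 in knockout and -4.53, -3.12 and -3.06 in control cells, with 2 of 3 knockout arrays and 0 of 3 control arrays above background. Its difference was 1.62, and it was too dim to be tested. The gene's direction is therefore not settled by these arrays. The probes are 60 bases long and start 464 bases apart, at chr17:35792741-35792800 and chr17:35793205-35793264 in build mm9. Whether these positions are exonic, intronic or untranslated was not analysed here. The first 30 bases of each are shown because the 2 probes disagree.
Vars2 brightest probe: caagaaaatgtcccacctagaaggaacgct
Vars2 other probe: cacacgcacaatttagcttcattttggaca

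**Figure D3:**
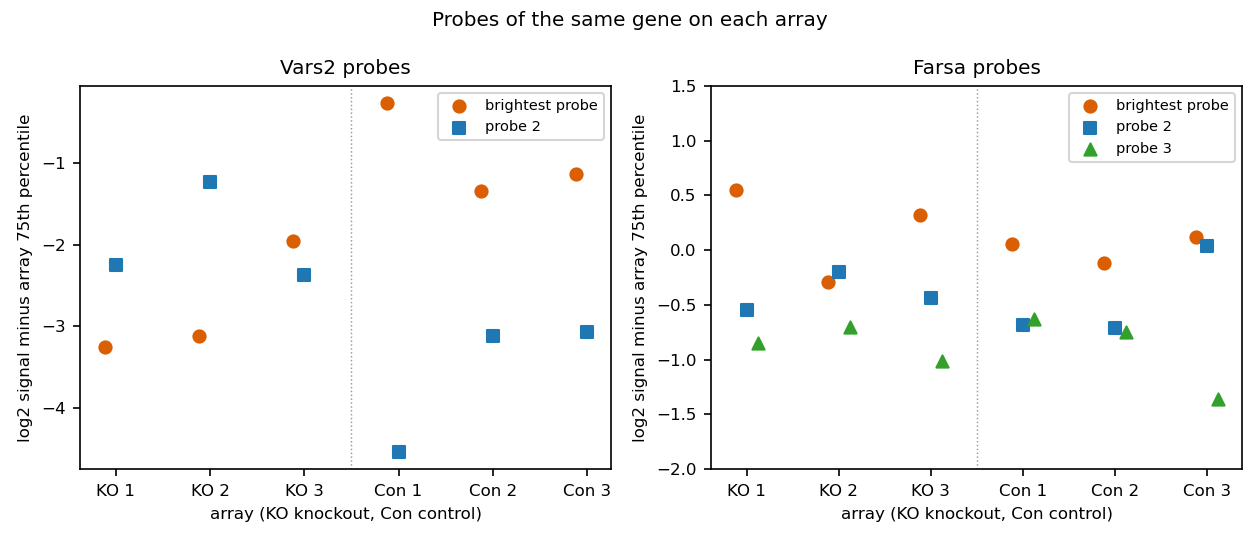
Log2 signal, relative to the array's 75th percentile, of each probe of Vars2 (left) and Farsa (right) on the 6 arrays. The Vars2 probes run in opposite directions (differences -1.86 and 1.62), while the 3 Farsa probes have differences of 0.17, 0.05 and 0.06.

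The other mitochondrial genes overlapped between the groups. Tars2, for mitochondrial threonyl-tRNA synthetase, had the highest difference of this class and read -1.08, -1.69 and -1.23 in knockout and -1.42, -1.99 and -1.90 in control cells. Knockout 2 lay below control 1, and the difference was 0.43 (SE 0.26, adjusted p = 0.881). A dimmer Tars2 probe, not above background on every array of either group, had a difference of -0.64. Fars2, for the single-chain mitochondrial phenylalanyl-tRNA synthetase, read -1.04, -1.46 and -1.29 in knockout and -0.60, -2.15 and -1.83 in control cells. Control 1 was above all other arrays and controls 2 and 3 below them (difference 0.26, SE 0.40). Yars2 (0.10, SE 0.30) and Hars2 (0.05, SE 0.25), for tyrosine and histidine, had the other higher means. Hars2 read 3.89, 3.84 and 4.52 in knockout and 4.02, 4.18 and 3.90 in control cells, so that its small difference came from knockout 3 and was -0.17 without it.

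Among the mitochondrial genes with lower means, Sars2, for mitochondrial seryl-tRNA synthetase, had the smallest p after Vars2. It read -1.25, -0.85 and -1.10 in knockout and -0.63, -0.90 and -0.80 in control cells. Knockout 1 and 3 were below every control array and knockout 2 lay among them, with a difference of -0.29 (SE 0.21, adjusted p = 0.940). Tarsl2 read -1.93, -2.20 and -1.20 in knockout and -2.34, -0.86 and -1.004 in control cells. Control 1 was the lowest of the 6 and the other controls the highest (difference -0.38, SE 0.44). Aars2, the mitochondrial alanyl-tRNA synthetase gene, read -0.41, -0.80 and -1.54 in knockout and -1.26, 0.81 and -0.999 in control cells. Control 2 stood far above the rest, and the difference of -0.43 (SE 0.56) became 0.21 without it. Ears2, for mitochondrial glutamyl-tRNA synthetase, had a difference of -0.19 (SE 0.33). The last 3 tested genes were Cars2 (-0.10, SE 0.56), Iars2 (-0.09, SE 0.24) and Pars2 (-0.04, SE 0.21), for cysteine, isoleucine and proline.

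By class, cytosolic names had mostly higher and mitochondrial names mostly lower knockout means. Without any filter on dim probes, 14 of 20 cytosolic genes had a higher mean and 6 a lower one, with a median difference of 0.22, and 6 of 18 mitochondrial genes had a higher mean and 12 a lower one, with a median of -0.09. Restricted to genes above background on all 6 arrays, the counts were 12 higher and 3 lower of 15 (median 0.26) and 4 higher and 6 lower of 10 (median -0.07). All tested features had a median of 0.04 with 55.9% higher in knockout, and those above background on all 6 arrays had a median of 0.05 with 58.6% higher. Among the tested genes the class medians were 0.26 and -0.09. Without knockout 1 the cytosolic median was 0.14, and without control 2 it was 0.10. Blocked by slide row the medians were 0.13 and 0.17, so the order of the classes was reversed where knockout 3 alone stood for the knockout.

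Array by array, the classes differed most on knockout 1. Relative to each gene's 6-array mean, the median of the 17 tested cytosolic genes was 0.29, 0.10 and 0.02 on knockout arrays 1, 2 and 3 and -0.05, -0.18 and 0.02 on the control arrays. Knockout 1 and 2 were the highest and control 2 the lowest, while knockout 3 and control 3 had the same median to 2 decimals. Knockout 1 was the highest of the 6 arrays for 8 of these 17 genes and the lowest for 0. Knockout 3 was the lowest for 5 and the highest for 0. The median of the 12 tested mitochondrial genes was -0.20, -0.12 and 0.15 in knockout and -0.06, 0.11 and 0.09 in control cells, so knockout 3 was here the highest array and the groups overlapped. On average, the neutrophil markers given above were also high on knockout 1 and 2 and low on knockout 3. So were the averages of the macrophage and endothelial markers, which were high on control 1 as well. Single markers did not all follow these averages. Among the knockout arrays, the macrophage markers Csf1r and Cd68 were highest on knockout 3, while Adgre1, Cd14, Lyz2 and Mrc1 were lowest there. The neutrophil markers Csf3r and Elane were also highest on knockout 3, and Cxcr2 and Mpo lay between. The other neutrophil markers were lowest there. The part of these markers' cells in the class medians was not tested.

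**Figure D4:**
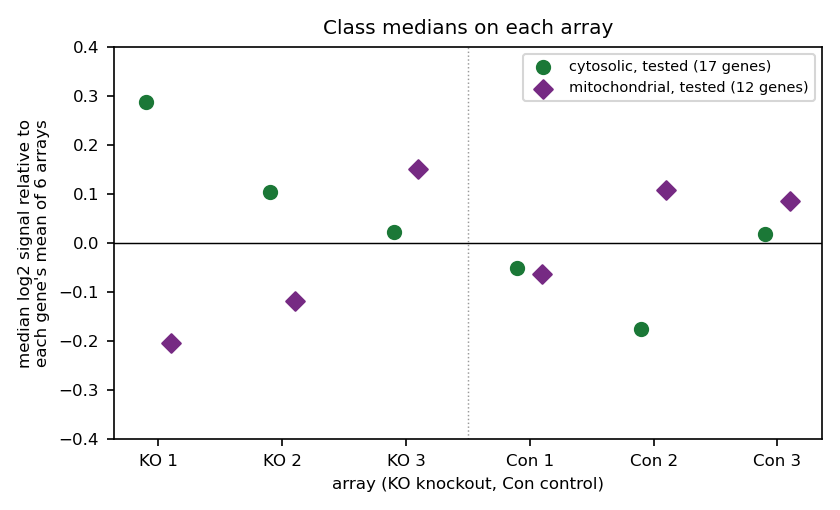
Median log2 signal of the 17 tested cytosolic (circles) and 12 tested mitochondrial (diamonds) synthetase genes on each array, relative to each gene's mean over the 6 arrays. Knockout 1 and 2 have the highest cytosolic and the lowest mitochondrial medians, and knockout 3 has the highest mitochondrial median, 0.15.

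Synthetases fall into 2 structural classes with unrelated catalytic domains, which differ in how they bind ATP and approach the tRNA. Of the tested cytosolic genes, 4 of 7 in class I had a higher mean (median 0.18) and 8 of 9 in class II did (median 0.34), Tars being the exception. Nars, Aars and Gars, whose groups did not overlap, are all of class II. For the mitochondrial genes it was 1 of 5 in class I (median -0.10) and 3 of 7 in class II (median -0.04). Cytosolic genes that belong to the multi-synthetase complex had 3 higher and 3 lower means (median -0.08), and full synthetases outside it had 9 higher and 1 lower (median 0.34). Mars, a complex member, was tested through the control arrays alone. Over genes above background on all 6 arrays, the complex had 3 higher and 2 lower means (median 0.18). Full synthetases outside it then had 8 higher and 1 lower (median 0.35). These groupings overlap, since most complex members are of class I.

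Set side by side by amino acid, the cytosolic and the mitochondrial gene did not follow one order. There were 16 pairs, of which 8, for 7 amino acids, had both genes tested. In 4 of the 8 the cytosolic difference was the higher one. The widest of these was alanine, with 0.50 for Aars against -0.43 for Aars2, followed by serine, with 0.52 for Sars against -0.29 for Sars2. Threonine ran the other way, with -0.16 for Tars against 0.43 for Tars2, as did isoleucine, with -0.35 for Iars against -0.09 for Iars2. Histidine had nearly equal differences, 0.05 for both Hars and Hars2. Several pairs had 1 dim gene. For asparagine, Nars2 was above background on no array. For methionine, Mars2 was above background on no array, and for leucine the same held for Lars2. Over all 16 pairs, dim genes included, the cytosolic difference was the higher one in 10.

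**Figure D5:**
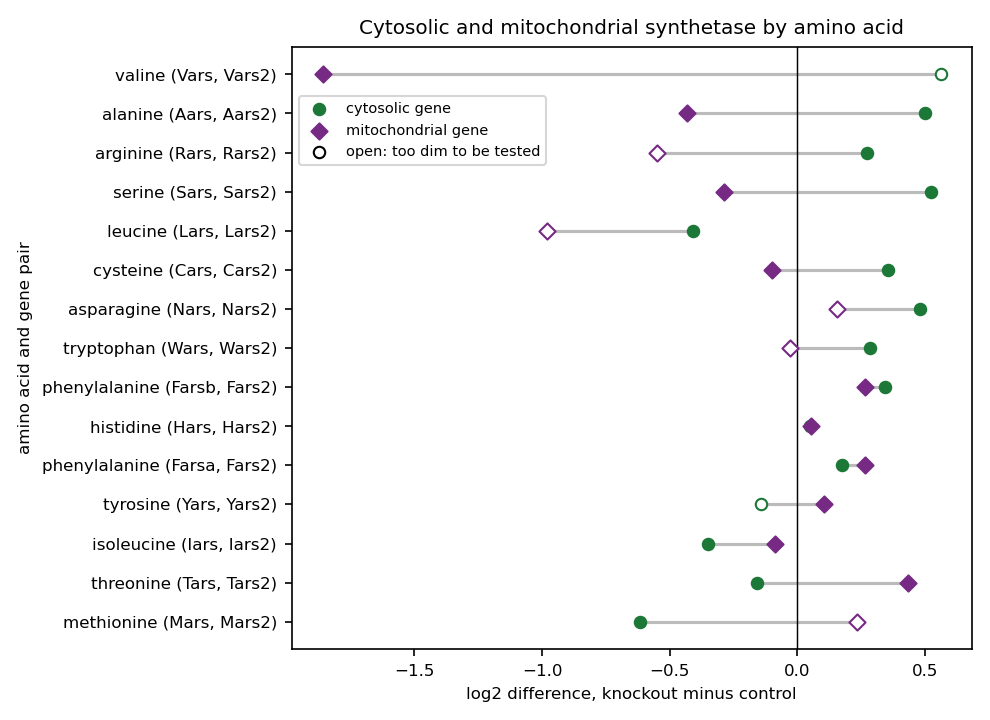
Knockout minus control log2 difference of the cytosolic (circle) and mitochondrial (diamond) synthetase gene by amino acid, joined by a line, for pairs with at least 1 tested gene. Open symbols are genes too dim to be tested. Alanine and serine have the cytosolic gene on the right, while threonine and methionine have it on the left.

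All 4 genes of the multi-synthetase complex that the name rule missed had lower knockout means, and 0 of them passed the test. Eprs, for the joined glutamyl- and prolyl-tRNA synthetase, read 0.66, 0.45 and 0.54 in knockout and 0.87, 0.99 and 0.76 in control cells. The knockout arrays lay below all control arrays, and the difference was -0.32 (SE 0.20, limma adjusted p = 0.884). The scaffold genes had differences of -0.92 for Aimp2 (SE 0.47), which was not above background on knockout 3, -0.13 for Aimp1 (SE 0.26) and -0.03 for Eef1e1 (SE 0.37). Together, 10 of the 11 listed complex genes were tested, 3 with a higher and 7 with a lower mean, with a median of -0.23 against 0.04 over all tested features. Mars and Aimp2, both with lower means, entered the test through the control arrays alone. Over probes above background on all 6 arrays the median of the complex genes was -0.08, against 0.05 over all such features. It was -0.13 for Eprs and the scaffold genes. Blocked by slide row the median of the complex genes was -0.55.

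Genes that act before and after tRNA charging gave 0 calls as well. Of 19 listed genes for tRNA maturation, editing and amidation, 13 were tested, 8 with a higher and 5 with a lower mean (median 0.05). Trmt10c, a subunit of mitochondrial RNase P and a tRNA methyltransferase, read -0.10, 0.17 and -0.0004 in knockout and -0.45, -0.72 and -0.50 in control cells. Its groups did not overlap and the difference was 0.58 (SE 0.21, adjusted p = 0.604). The 6 cytosolic elongation genes, among them Eef1a1 (0.01, SE 0.20), which carries charged tRNA to the ribosome, had a median of -0.02 with 2 higher and 4 lower. Of 14 mitochondrial translation factors on the array 7 were tested, 5 higher and 2 lower (median 0.13), among them Tufm (0.13, SE 0.26), the mitochondrial counterpart of Eef1a1.

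The ATF4 pathway, to which several cytosolic synthetase genes belong, was described by 25 listed genes, 21 of them tested. Higher means were found for 15 and lower means for 6, with a median of 0.08, and 0 passed the test. Atf4 itself read 5.19 on each knockout array and 5.26, 5.16 and 5.02 on the control arrays (difference 0.04, SE 0.20, 95% interval -0.41 to 0.50). Asns, for asparagine synthetase, the enzyme that makes the substrate of Nars, had a difference of 0.20 (SE 0.26). Sesn2, a stress-induced inhibitor of mTORC1, had a difference of 0.81 (SE 0.21, adjusted p = 0.424) and Vldlr, a lipoprotein receptor, one of 0.68 (SE 0.21, adjusted p = 0.503). Upstream, 4 of 5 genes for eIF2alpha kinases and their inhibitor were tested. Impact, an inhibitor of GCN2, read 4.97, 4.76 and 4.57 in knockout and 3.25, 3.12 and 3.25 in control cells. Its groups were well separated, with a difference of 1.56 (SE 0.21), and the adjusted p of 0.157 (limma) did not pass. Eif2ak4, the gene of GCN2, was too dim to be tested.

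The letters that ATF4 and C/EBP factors bind were looked for in RefSeq promoters (assembly GRCm38.p6), from 250 bases before to 50 bases after each gene's start, as a description of the sequences. The motif was TGATGNAA, read on both strands, so that TTNCATCA on the gene's strand counts as well. Of the 38 genes 28 had a promoter entry. The motif was present in 5 of 13 cytosolic genes, Aars, Gars, Iars, Tars and Yars, and in 0 of 15 mitochondrial genes, against 3.97% of all 32851 promoter entries. In the list of the ATF4 pathway 8 of 23 genes with an entry had it. Aars had 2 matches, at -112 to -105 and at 10 to 17 counted from the start as 1. The match lay at -30 to -23 in Gars, at 8 to 15 in Iars, at -15 to -8 in Tars and at 4 to 11 in Yars. The differences of these genes had no common sign, at 0.50 for Aars, 0.35 for Gars, -0.35 for Iars and -0.16 for Tars, while Yars was too dim to be tested. A match of letters is not a binding site. The 160 bases from 130 before the start to 30 after it are shown for the 5 genes, on the gene's strand with the matches in capitals. They lie at chr8:111033712-111033871 (Aars), chr6:55037871-55038030 (Gars), chr13:49682000-49682159 (Iars), chr15:11399629-11399788 (Tars, minus strand) and chr4:129189773-129189932 (Yars).
Aars: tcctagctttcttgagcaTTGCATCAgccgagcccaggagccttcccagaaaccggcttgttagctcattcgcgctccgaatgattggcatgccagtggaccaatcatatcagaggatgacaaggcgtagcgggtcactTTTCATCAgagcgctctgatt
Gars: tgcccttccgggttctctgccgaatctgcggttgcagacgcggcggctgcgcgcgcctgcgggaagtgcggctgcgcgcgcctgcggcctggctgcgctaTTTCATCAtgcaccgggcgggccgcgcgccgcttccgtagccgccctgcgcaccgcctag
Iars: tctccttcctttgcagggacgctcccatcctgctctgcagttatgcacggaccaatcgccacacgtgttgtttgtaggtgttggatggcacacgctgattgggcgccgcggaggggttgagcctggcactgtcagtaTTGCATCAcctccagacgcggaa
Tars: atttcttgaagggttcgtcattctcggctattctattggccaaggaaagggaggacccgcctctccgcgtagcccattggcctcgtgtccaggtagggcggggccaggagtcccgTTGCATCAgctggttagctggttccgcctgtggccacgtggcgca
Yars: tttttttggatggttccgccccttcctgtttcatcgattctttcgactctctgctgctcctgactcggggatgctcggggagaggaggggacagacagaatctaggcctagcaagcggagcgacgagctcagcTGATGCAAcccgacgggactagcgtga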

How the data were processed

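The values deposited for each array are spot intensities on a linear scale, which the authors had corrected for background and detrended with Agilent Feature Extraction. Its version is 10.7.1.1 per the file headers, and 9.5.1.1 per the submitters' processing notes. Intensities in the deposited value matrix, whose columns share their quantiles, served as an alternative. From the deposited processed signal, log2 values minus the array's 75th percentile were computed, without control spots and spots flagged as outliers. Spots of 1 probe were averaged. The deposited probe annotation is on build mm9.

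The groups were compared with limma 3.58.1 in R 4.3.3 (files read with version 1.17.8 of data.table), fitted over all 19194 features without covariates and adjusted by Benjamini-Hochberg. Tests were 2-sided. The 3 arrays per group limit the precision. No label says whether mice were paired by litter or sorting day. The members and gene lists were chosen with earlier results of these data known. The genes named are, in each name class and direction, up to 5 by rising p, and those whose groups do not overlap, each with its counterpart of the same amino acid. From the lists, Eprs, Aimp1, Aimp2, Eef1e1, Atf4, Asns and Impact were taken always, with others of small p or known role. Alternatives covered scaling, background correction, the probe filter, probe choice, moderation, blocks, left-out arrays and class membership. Some genes that the rules take are not reported here.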

Additional observations from a re-analysis of the deposited data

How the results depend on the processing

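Of 743 alternative values, for 35 results under up to 25 settings, 658 kept their direction and their side of the threshold, or moved by less than the spread between arrays. That count is no measure of robustness. Some settings, such as the probe filters, mostly leave the difference of a single gene unchanged by design. Large changes in size were also counted as kept. With normexp, Vars2 went from -1.86 to -0.55 and the cytosolic minus mitochondrial difference from 0.36 to 0.14. No synthetase gene passed an adjusted p of 0.05 under any of the 21 alternatives that could give one (0 calls each), and Psmc4 stayed lower (-1.25 to -0.76). Deviations of same-numbered knockout and control arrays had correlations of 0.07, -0.02 and 0.09. Those of differently numbered arrays ran from -0.09 to 0.04. These small values cannot settle whether the replicate numbers pair the samples. The fit with the replicate number as a block gave 0 calls. Its Psmc4 difference of -0.92 and class medians of 0.26 and -0.09 were unchanged. That was fixed in advance, because each replicate number holds 1 knockout and 1 control array, so it says nothing about pairing. Precision was limited by 3 arrays a group and, for the 9 untested genes, by signal near background.

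The count of synthetase genes that were higher at an unadjusted p under 0.05, 0 in the report, was 1 with normexp (Nars), median scaling (Aars), the percentile over detected probes (Nars), the mean of probes (Nars), the intensity trend (Nars) and slide row 2 alone (Yars). It was 2 (Aars and Nars) with quantile normalization, the deposited table and probes above background on all 6 arrays, and 3 with array weights (Aars, Nars and Sars). The lower count was 0 for probes above background on all 6 arrays and 2 with slide row as a block (Mars and Tars). Genes higher without overlap numbered 1 with normexp and 11 in slide row 2 alone, where 1 array faces 3. Genes lower without overlap numbered 3 without the filter (Dars, Lars2 and Vars2), 0 for probes above background on all 6 arrays, and 9 in slide row 2 alone. The cytosolic median was 0.12 with normexp and 0.13 blocked by slide row, the mitochondrial one 0.17 with that block and in slide row 2 alone, and the cytosolic minus mitochondrial difference, 0.36 in the report's setting, -0.041 and -0.025 there. Both slide row settings gave medians of -0.55 for the multi-synthetase complex, -0.57 for Eprs and the scaffolds, -0.25 for the charging partners, -0.20 for cytosolic elongation and -0.032 for the mitochondrial translation factors. The last list was 0.051 with quantile normalization, 0.052 with the deposited table and -0.033 without the filter. The list of eIF2alpha kinases was 0.60 over probes above background on all 6 arrays. The cause of these shifts was not tested.

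Signs turned for Hars2 (-0.12) and Tars (0.025) with array weights, for Ears2 (0.17), Sars (-0.18) and Tarsl2 (0.20) in both slide row settings, and for Vars2 (1.62) with its other probe, an alternative chosen after seeing the data. Leaving out 1 array at a time, the counts at an unadjusted p under 0.05 were 0 to 3 higher (3 without knockout 3) and 1 to 3 lower (3 without control 1), and those without overlap 3 to 7 higher and 1 to 6 lower, with fewer arrays to overlap. The class medians ranged from 0.10 to 0.34 and from -0.19 to -0.03, and their difference from 0.15 to 0.51. The list medians ranged from -0.31 to -0.09 for the complex, -0.31 to -0.15 for Eprs and the scaffolds, -0.064 (without control 2) to 0.10 for the charging partners, -0.14 to 0.05 for elongation, -0.034 (without knockout 1) to 0.11 for mitochondrial translation, 0.042 to 0.19 for ATF4 and -0.10 to 0.38 for the eIF2alpha kinases. Single genes that changed sign in this way were Hars2 (-0.17 to 0.18), Tars (-0.31 to 0.10), Ears2 (-0.51 to 0.0066), Yars2 (-0.19 to 0.34), Aars2 (-0.82 to 0.21) and Fars2 (-0.050 to 0.73).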
